A study of Homo sapiens with 30 samples.

Results

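Insulin-like growth factor (IGF) binding proteins, and the receptors and adaptors through which IGFs act, were examined in T47D breast cancer cells. The cells had received control siRNA or siRNA against a single subunit of negative elongation factor (NELF). The set held 10 genes chosen by symbol: the binding proteins IGFBP2, IGFBP3, IGFBP4, IGFBP5 and IGFBP6, the receptors IGF1R, IGF2R and INSR, and the adaptors IRS1 and IRS2. Of these, 9 had a transcript cluster annotated with that symbol alone, among 22011 clusters in the gene-level table, of which 14432 carried 1 symbol. The cluster of IGF2R also carried a second symbol, so IGF2R was measured as the median of its 58 exon-level probe sets, and counts of called members are over the other 9.

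The study profiled genes and exons on exon arrays after depletion of each NELF subunit, to find those affected in common. T47D is an established luminal breast cancer line. Cells of all 5 groups were transfected with siRNA at 10 nM, received new medium after 48 hours and were harvested 48 hours after that. The control siRNA was directed against luciferase, and each of the others against one NELF subunit (A, B, C or E). Where 4 values are listed for the knockdowns, they follow that order. Each group had 3 arrays, described in the series text as technical repeats, so every p-value below measures the spread between repeats and not between cultures. Culture medium held serum in all groups, and the labels name no added IGF. In RNA from whole cultures, fewer cells expressing a gene and less of its RNA per cell cannot be told apart.

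IGF1 and IGF2 signal through the IGF1 receptor, a tyrosine kinase closely related to the insulin receptor. The activated receptors phosphorylate the docking proteins IRS1 and IRS2, which recruit PI3-kinase and GRB2 and so feed the AKT and Ras pathways. The IGF2 receptor has no kinase activity and takes IGF2 to lysosomes. IGF binding proteins hold IGFs outside the cell, and proteases such as pappalysin release them again. In luminal breast cancer cells IGF1R, IRS1 and IGFBP4 are known as oestrogen-induced genes. NELF pauses RNA polymerase II near promoters.

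Among the arrays, siNELF-B replicates 2 and 3 stood apart. Gene-level correlations within siNELF-B ran from 0.917 to 0.973, against 0.984 or more in the other groups. Replicate 2 had a mean correlation of 0.9845 with the controls and 0.945 with its own group, and replicate 3 had the narrowest interquartile range, 3.12 on the log2 scale. Counts are therefore also given without this pair, which leaves siNELF-B with 1 array whose spread is assumed to be that of the other groups. Of the targets, NELFCD changed by -3.42 (log2) in siNELF-C (adjusted p = 1.67e-05), the NELFE probe set median by -2.61 in siNELF-E (2.49e-05) and the NELFA median by -0.61 in siNELF-A, which did not pass (0.176). NELFB was not analysed here, so siNELF-B has no check at its own target. All 11 luminal markers were above the 40th percentile of gene means (3.90), while 0 of 3 endothelial and 1 of 4 measured leukocyte markers were, as were 2 of 5 mesenchymal markers and the 1 basal marker measured. The summed luminal level was 13.74 to 13.94 in control and lowest in siNELF-B, 13.33 to 13.74. The summed mesenchymal level was 7.06 to 7.15 in control, 6.84 to 7.13 in siNELF-B, 6.82 to 6.91 in siNELF-C, 6.43 to 6.49 in siNELF-A and 6.58 to 6.70 in siNELF-E, with VIM at 2.50 in control. Of that list FN1, named after its values were seen, was called lower in siNELF-A (-1.96, adjusted p = 0.00299) and siNELF-E (-1.25, 0.0234), from 5.70 in control. VIM, COL1A1, COL3A1 and PDGFRB were not called, at -0.02, -0.37, 0.17 and 0.20 in siNELF-A and 0.09, -0.21, 0.16 and 0.04 in siNELF-E. ESR1, the oestrogen receptor, named after its values were seen, was called lower in every knockdown, by -1.21, -0.89, -1.37 and -1.07. In the mean of the 4 knockdowns 2 of the 11 luminal markers were called, ESR1 and PGR. SPDEF was called lower in siNELF-A and siNELF-C (-0.81 and -0.73) and higher in siNELF-E (0.82). PGR was called lower in siNELF-A and siNELF-C (-1.08 and -1.06), FOXA1 in siNELF-A (-0.90) and XBP1 in siNELF-C (-0.66). GATA3, KRT8, KRT18, KRT19, EPCAM and CDH1 were called in no knockdown. The summed luminal level weighs the brightest markers most, with KRT8 at 12.33 in control. The part of these markers in the changes below was not tested.

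To be called, a gene had to change at least 1.5-fold with limma's p, adjusted by Benjamini and Hochberg's method across every cluster, below 0.05. All values are log2, errors are SD with n = 3 unless named as SE, and adjusted p-values are limma's. Where arrays of different groups are said to lie apart, this is a description. The share of all genes whose arrays lie apart in the same way was not counted. Lower calls made up 73.7 to 95.3% of all calls in the 4 knockdowns, and 47.0 to 82.4% when arrays were rescaled by quantiles, the median or the 75th percentile.

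Calls against control fell on IGFBP4, IGFBP5 and IGF1R, and the set of called members differed between the 4 knockdowns. The siNELF-E and siNELF-C sets differed only by IGF1R. Its siNELF-E call was kept in 5 of the 15 fits that left out 1 array. In siNELF-A cells 3 of the 9 members were called (IGFBP4, IGFBP5 and IGF1R, all lower), where 3.32% of all genes were called. In siNELF-E cells 2 were called (IGFBP4 and IGF1R, lower; 5.48% of all genes), and in siNELF-C cells 1 (IGFBP4, lower; 6.22%). No member was called in siNELF-B cells (4.39% of all genes); IGFBP3 had the widest difference there, 0.37 (adjusted p = 0.123), which was -0.11 by the median of its probe sets. In the mean of the 4 knockdowns against control 2 were called (IGFBP4 and IGFBP5, lower; 4.81%). Most members were not called: the median change of the 9 was -0.16, 0.05, 0.15 and 0.02 in the knockdowns, beside -0.03, -0.14, -0.08 and -0.02 over all genes. Without siNELF-B replicates 2 and 3 the counts were 3, 0, 2 and 3 for the knockdowns and 2 for their mean, while the share of all genes called rose to 10.3, 19.2, 17.1, 10.7 and 10.4%. The 4 comparisons share their control arrays, so their calls are not independent of each other.

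**Figure D1:**
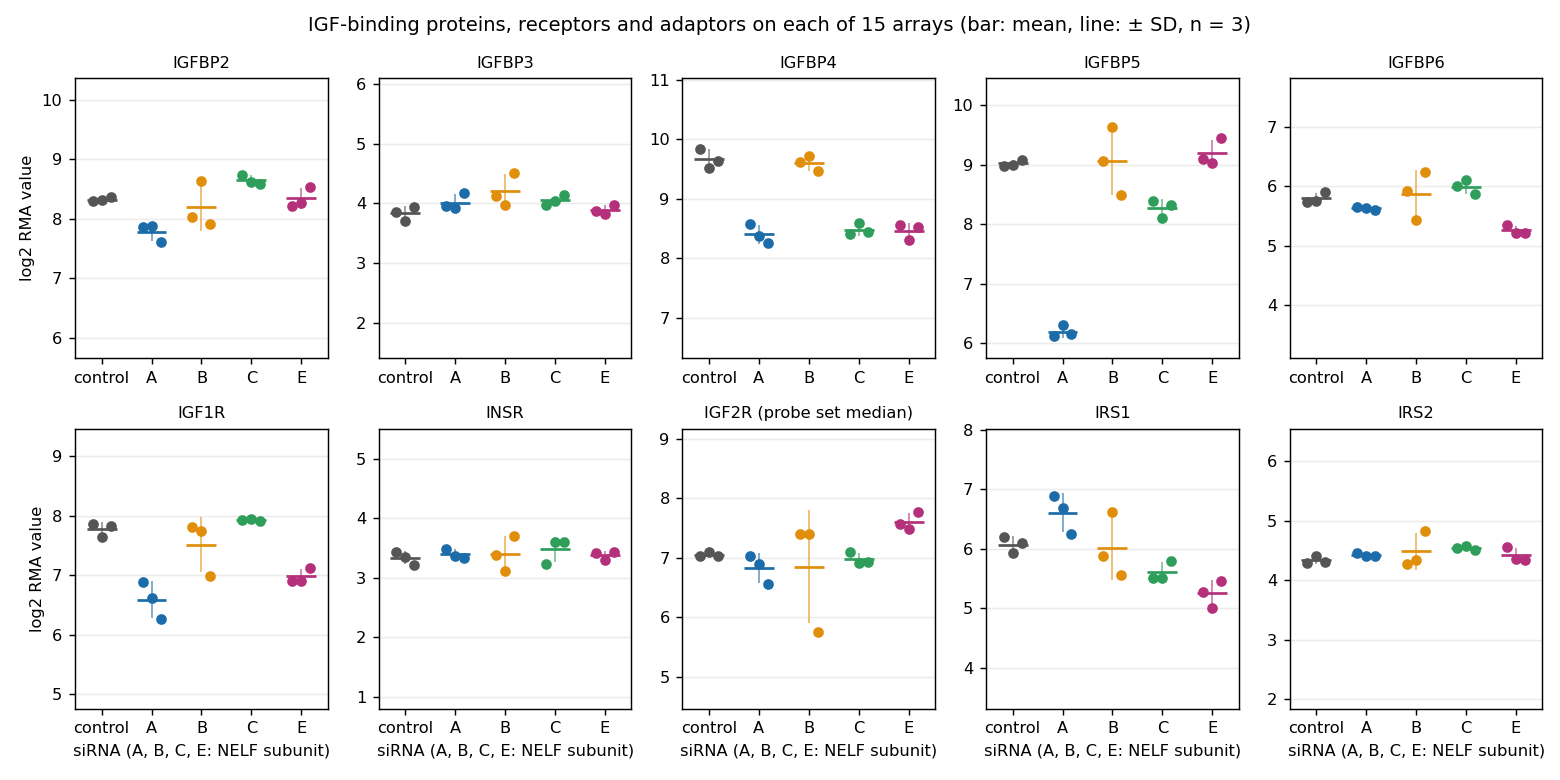
The log2 RMA value (vertical axis) of each of the 10 genes on each of 15 arrays (points), with group means (bars) and SD (lines, n = 3); all panels span the same number of log2 units, and a level in one panel cannot be set against another. In IGFBP4 the control and siNELF-B arrays lie above all others, IGFBP5 is lowest in siNELF-A, and IGF1R is lower in siNELF-A and siNELF-E.

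**Figure D2:**
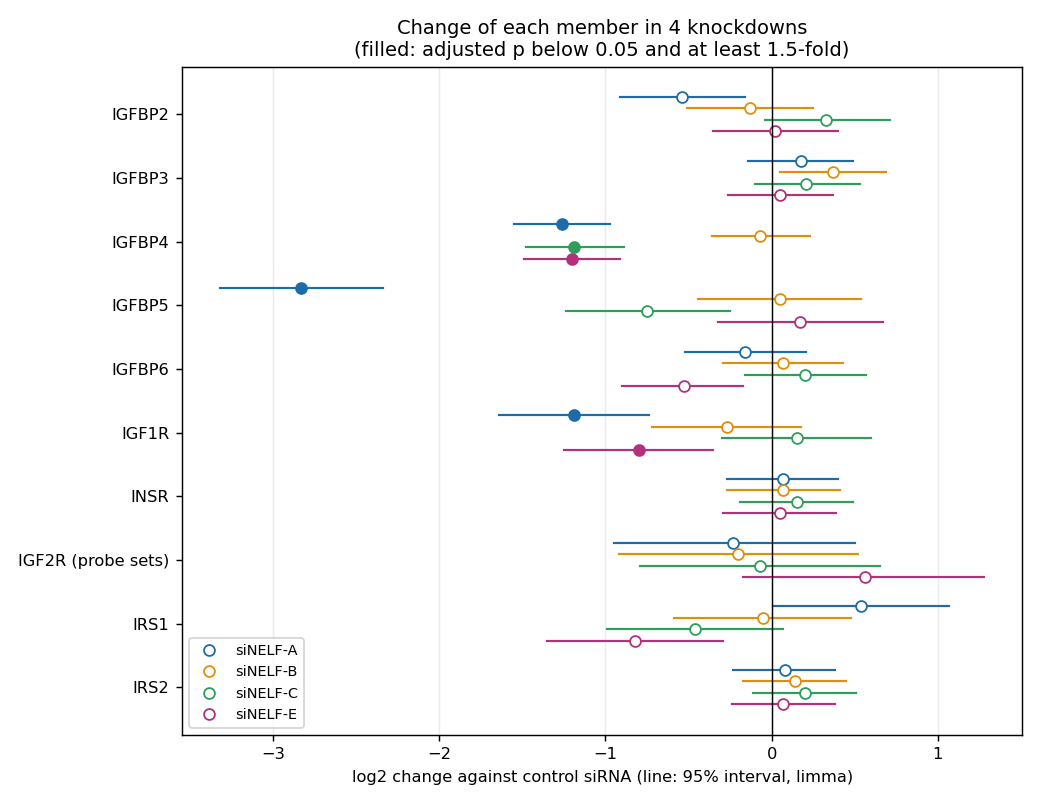
Log2 change against control siRNA (horizontal axis) of each of the 10 genes in each of the 4 knockdowns, with 95% intervals from limma; filled points passed the call. The 6 filled points are IGFBP4 in 3 knockdowns, IGFBP5 in siNELF-A, and IGF1R in siNELF-A and siNELF-E.

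The stretches before the transcription starts of the 3 called members are shown. They are the 250 bases before the RefSeq start (GRCh38.p14), written 5′ to 3′ on the gene's strand. NELF acts just past such starts, so the bases where it acts are not in these windows. Capitals mark matches, on either strand, to 5 short motifs. The TATA box was searched as TATAAA and the GC box as GGGCGG. The other motifs were the CCAAT box by that name, the AP-1 site as TGANTCA and the oestrogen response half-site as TGACC. No motif is contained in another. The IGFBP4 window is chr17:40443200-40443449 on the plus strand, the IGFBP5 window chr2:216695550-216695799 on the minus strand, and the IGF1R window chr15:98648289-98648538 on the plus strand.
IGFBP4: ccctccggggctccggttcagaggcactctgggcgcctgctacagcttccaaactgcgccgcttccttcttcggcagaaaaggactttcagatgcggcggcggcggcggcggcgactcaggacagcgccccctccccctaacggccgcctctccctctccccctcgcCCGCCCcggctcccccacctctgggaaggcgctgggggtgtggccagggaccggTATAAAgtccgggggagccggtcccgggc
IGFBP5: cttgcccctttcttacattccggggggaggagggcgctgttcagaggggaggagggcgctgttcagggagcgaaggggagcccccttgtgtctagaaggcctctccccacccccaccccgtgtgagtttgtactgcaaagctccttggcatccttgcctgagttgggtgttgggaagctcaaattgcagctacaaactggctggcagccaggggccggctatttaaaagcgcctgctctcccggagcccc
IGF1R: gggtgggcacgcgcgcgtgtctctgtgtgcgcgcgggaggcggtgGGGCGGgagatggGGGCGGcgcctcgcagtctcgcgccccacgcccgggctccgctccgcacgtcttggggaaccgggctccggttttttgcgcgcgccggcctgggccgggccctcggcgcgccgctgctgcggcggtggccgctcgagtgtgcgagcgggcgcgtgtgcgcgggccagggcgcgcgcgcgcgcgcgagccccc

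The 3 windows differ in composition. IGFBP4 has a TATAAA match 29 to 24 bases before the start and 1 GC box match. Of 35116 such windows, 10.7% hold a TATAAA and 42.6% a GC box, at any position and on either strand. The share with TATAAA at that position was not counted. IGF1R has 2 GC box matches and no TATAAA, and its GC content is 81.2%, with 48 CpG dinucleotides, beside a median GC of 58.0% and 11 CpG over all windows. IGFBP5 has no match to the 5 motifs as spelled above, a GC content of 61.2% and 8 CpG. Other spellings, such as the tatttaaa near the end of the IGFBP5 window, were not searched. IGFBP4 lies between, at 71.6% GC and 24 CpG. None of the 3 holds TGACC (32.6% of windows), CCAAT (32%) or TGANTCA (6.57%), which says only that these letters are not in these windows. IGFBP5 is the next protein-coding gene after IGFBP2 on chromosome 2 in the RefSeq table.

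IGFBP4, which binds IGFs in the medium and is cut by pappalysin, was lower in 3 of the 4 knockdowns (cluster 3721010). The control arrays read 9.84, 9.52 and 9.64 (9.66 ± 0.160), and the siNELF-B arrays 9.61, 9.72 and 9.46 (9.60 ± 0.131). SiNELF-A arrays read 8.57, 8.38 and 8.25 (8.40 ± 0.163). Those of siNELF-C were 8.40, 8.59 and 8.44 (8.48 ± 0.102), and those of siNELF-E 8.55, 8.31 and 8.52 (8.46 ± 0.128). All 9 arrays of siNELF-A, siNELF-C and siNELF-E lay below all 6 of control and siNELF-B, which overlapped each other. IGFBP4 thus fell 2.4-fold in siNELF-A (log2 change -1.26, SE 0.135, adjusted p = 0.000251), while siNELF-C gave a 2.27-fold fall (-1.19, 0.000454) and siNELF-E one of 2.3-fold (-1.20, 0.000182). In siNELF-B its change was -0.07 (95% interval -0.36 to 0.23, adjusted p = 0.768).

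The difference of siNELF-B from the other knockdowns was itself tested for IGFBP4. It was called against siNELF-A (1.2, siNELF-B higher, adjusted p = 0.000951), against siNELF-C (siNELF-C minus siNELF-B -1.12, 0.00097) and against siNELF-E (siNELF-E minus siNELF-B -1.14, 0.000617). Among siNELF-A, siNELF-C and siNELF-E the differences were 0.08, 0.06 and -0.02 (adjusted p = 0.861, 0.912 and 0.961). With only its replicate 1, siNELF-B still differed from siNELF-A by 1.21 (adjusted p = 0.00144). The calls of IGFBP4 held in each of the 15 fits that left out 1 array. The mean of the 4 knockdowns was -0.93 (adjusted p = 0.0005), although siNELF-B did not share in it.

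IGFBP5, a binding protein that also attaches to extracellular matrix, had the widest change among the 10 genes, and it was in siNELF-A alone that it was called against control (cluster 2598828). Control arrays read 8.98, 9.0 and 9.09 (9.02 ± 0.062), and siNELF-A arrays 6.12, 6.31 and 6.16 (6.2 ± 0.098). The fall was 7.1-fold (log2 change -2.83, SE 0.227, adjusted p = 2.67e-05), a call that all 15 fits leaving out 1 array kept. SiNELF-B arrays read 9.07, 9.64 and 8.50 (9.07 ± 0.573), so that 2 of the 3 lay outside the control range, one on each side. SiNELF-E arrays read 9.10, 9.04 and 9.45 (9.20 ± 0.222) and overlapped the controls.

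SiNELF-C arrays read 8.40, 8.10 and 8.33 for IGFBP5 (8.28 ± 0.160), all below the lowest control, but the change of -0.75 did not pass (adjusted p = 0.0673). Leaving out siNELF-B replicate 2 or 3 left that value at -0.75 and let it pass (adjusted p = 0.00839 and 0.00672). IGFBP5 differed between siNELF-A and each other knockdown, by 2.88 for siNELF-B (adjusted p = 5.68e-05), 2.08 for siNELF-C (0.000429) and 3.0 for siNELF-E (1.89e-05). SiNELF-E was also above siNELF-C by 0.92 (0.034), a call lost without any 1 array of control, siNELF-C or siNELF-E (adjusted p up to 0.151). The mean of the 4 knockdowns, -0.84 (adjusted p = 0.017), rests on siNELF-A and siNELF-C, and without control replicate 1, 2 or 3 it did not pass (0.0788, 0.0746 and 0.117).

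IGFBP2, the neighbour of IGFBP5 on chromosome 2 and also an IGF carrier, was not called against control in any knockdown (cluster 2527253). Control arrays read 8.29, 8.31 and 8.36, siNELF-A arrays 7.86, 7.87 and 7.61, and siNELF-C arrays 8.74, 8.62 and 8.59. The siNELF-A arrays all lay below control (-0.54, adjusted p = 0.125) and the siNELF-C arrays all above (0.33, 0.252). The difference of siNELF-C from siNELF-A, 0.87, was called (adjusted p = 0.019), but not when any 1 of those 6 arrays was left out (up to 0.0884). SiNELF-B spanned 7.91 to 8.64 and siNELF-E 8.22 to 8.54, both overlapping control (-0.13 and 0.02, adjusted p = 0.637 and 0.98).

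IGFBP6, which prefers IGF2 over IGF1, had a lower range in siNELF-E than in any other group (cluster 3415744). SiNELF-E arrays read 5.35, 5.22 and 5.22, control arrays 5.74, 5.75 and 5.91, siNELF-A arrays 5.66, 5.64 and 5.61, and siNELF-C arrays 6.01, 6.11 and 5.87. The siNELF-E change against control was -0.53 and did not pass (adjusted p = 0.0947). Against siNELF-C siNELF-E was lower by -0.74 (adjusted p = 0.0241), lost without any 1 array of those 2 groups (up to 0.106). That call was also lost under quantile, median and 75th percentile scaling (0.0944, 0.054 and 0.0719) and, for its size, with the interquartile range as a covariate (-0.54). Against siNELF-B it was lower by -0.60 (0.0476), which held in 1 of the 15 fits that left out an array, that without siNELF-B replicate 2, and was lost under the same scalings (0.0746, 0.0606 and 0.0639) and the covariate (-0.31, 0.145). IGFBP3, the main IGF carrier of serum, was near the 40th percentile of gene means in every group (3.84 ± 0.114 in control, 3.89 to 4.21 elsewhere; cluster 3049292) and was called in no comparison.

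IGF1R, the receptor kinase for IGF1 and IGF2, was lower in siNELF-A and siNELF-E (cluster 3610804). Control arrays read 7.86, 7.65 and 7.82 (7.78 ± 0.115), siNELF-A arrays 6.89, 6.62 and 6.26 (6.59 ± 0.314), and siNELF-E arrays 6.91, 6.90 and 7.13 (6.98 ± 0.134). These 6 knockdown arrays all lay below the controls. The fall was 2.28-fold in siNELF-A (log2 change -1.19, SE 0.208, adjusted p = 0.008), called in all 15 fits that left out 1 array. In siNELF-E it was 1.74-fold (-0.80, adjusted p = 0.0414), and this call was lost without any 1 array of control, siNELF-C or siNELF-E and without siNELF-A replicate 2 (up to 0.142).

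The remaining knockdowns were close to control in IGF1R. SiNELF-C arrays read 7.92, 7.94 and 7.91, all above control, a change of 0.15 (adjusted p = 0.682). SiNELF-B arrays read 7.81, 7.74 and 6.98, a change of -0.27 (0.403), with replicate 3 well below the other two. SiNELF-C was above siNELF-A by 1.34 (adjusted p = 0.00415), in every fit that left out 1 array. SiNELF-B was above siNELF-A by 0.92 (0.0282), lost without siNELF-A replicate 2 or 3 or siNELF-B replicate 1 (up to 0.123). SiNELF-E was below siNELF-C by -0.95 (0.0195), lost without any siNELF-C array or siNELF-E replicate 1 or 2 (up to 0.0774).

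A second, dimmer IGF1R cluster (3610958) was also below control on all siNELF-A and siNELF-E arrays but passed no test. Its control arrays read 6.07, 6.14 and 6.48, those of siNELF-A 5.28, 4.64 and 4.74, and those of siNELF-E 4.67, 4.78 and 4.62, with no overlap. The changes were -1.34 (SE 0.428, adjusted p = 0.119) and -1.54 (0.0545). Its siNELF-B arrays read 6.08, 6.2 and 4.04. Without siNELF-B replicate 3 alone the same changes passed, at adjusted p = 0.000534 and 0.000109, and without replicate 2 alone siNELF-E passed (0.0221) and siNELF-A did not (0.0505).

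INSR and IGF2R, the other receptors, were called in no comparison. In every group INSR (cluster 3848243) was dim, under the 40th percentile of genes, with 3.33 ± 0.110 in control and 3.38 to 3.48 in the knockdowns, so no fold is given. The IGF2R median was 7.02, 7.09 and 7.03 on the control arrays and 7.56, 7.48 and 7.77 on the siNELF-E arrays, with no overlap and a difference of 0.56 (SE 0.338, adjusted p = 0.535). SiNELF-B replicate 3 read 5.75 for IGF2R, against 7.40 on both other arrays of its group. Without siNELF-B replicates 2 and 3 the siNELF-E difference was again 0.56 at adjusted p = 0.0355, still short of 1.5-fold. The other knockdowns gave -0.23, -0.20 and -0.07 (adjusted p = 0.827, 0.718 and 0.917).

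IRS1, the docking protein next to IGF1R, had means on opposite sides of the control mean in different knockdowns (cluster 2601995). Control arrays read 6.19, 5.92 and 6.10, siNELF-A arrays 6.89, 6.68 and 6.25, siNELF-C arrays 5.51, 5.51 and 5.80, and siNELF-E arrays 5.28, 5.01 and 5.46. The siNELF-A arrays all lay above control and the siNELF-C and siNELF-E arrays all below. By the median of its probe sets, siNELF-A reached down to 6.34 and control up to 6.35, so those ranges overlapped. No change against control passed: 0.54 in siNELF-A (adjusted p = 0.285), -0.46 in siNELF-C (0.261) and -0.82 in siNELF-E (0.0745). Without siNELF-B replicate 2 or 3 the siNELF-E value, unchanged at -0.82, passed (0.0112 and 0.0231).

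Directly compared, IRS1 was 2.57-fold lower in siNELF-E than in siNELF-A (log2 difference -1.36, SE 0.246, adjusted p = 0.0069), in every fit that left out 1 array. It was also lower in siNELF-C than in siNELF-A, by -1.0 (0.0477), which was kept in 3 of the 15 such fits, those without siNELF-A replicate 3, siNELF-B replicate 2 or siNELF-B replicate 3. SiNELF-B arrays read 5.88, 6.62 and 5.55, overlapping control. IRS2, the related docking protein, was called in no comparison (4.34 ± 0.064 in control, 4.41 to 4.54 in the knockdowns, cluster 3525234). Its changes against control of 0.07 to 0.20 did not pass (adjusted p = 0.402 to 0.897). Its siNELF-C arrays read 4.53, 4.57 and 4.51, all above the control arrays at 4.29, 4.41 and 4.31. The siNELF-B arrays read 4.27, 4.34 and 4.83. Over the 6 pairs of knockdowns, the members called numbered 3 between siNELF-B and siNELF-A (4.28% of all genes), 4 between siNELF-C and siNELF-A (2.87%), 2 between siNELF-E and siNELF-A (4.05%), 1 between siNELF-C and siNELF-B (2.14%), 2 between siNELF-E and siNELF-B (6.9%) and 3 between siNELF-E and siNELF-C (5.18%). Without siNELF-B replicates 2 and 3 these counts were 3, 4, 2, 3, 3 and 3, while the share of all genes called rose to 13.6, 9.95, 9.67, 8.27, 17.1 and 12.9%.

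The probe sets of a gene, each covering part of an exon, show whether a change ran along the transcript; they come from the same hybridisations and are no further replicates. IGFBP5 was called lower in siNELF-A at 9 of its 12 probe sets, where 0.618% of all 287329 were called. All 12 were below 0 in siNELF-A, from -3.70 to -0.44 with a median of -2.84, while 57.3% of all probe sets were. All 12 were also below 0 in siNELF-C, from -1.34 to -0.44 with none called (1.15% of all probe sets called, 59% below 0). Without siNELF-B replicates 2 and 3, 10 were called lower in siNELF-A and 3 in siNELF-C, where 4.05% and 10.9% of all probe sets were then called. In siNELF-E 11 of the 12 were at or above 0, with a median of 0.24 and none called (1.6% of all probe sets called).

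IGFBP4 was called lower at 4 of its 7 probe sets in siNELF-A, 4 in siNELF-C and 3 in siNELF-E, and at 3 in the mean of the 4 knockdowns (0.875% of all probe sets). Its medians there were -1.34, -1.14, -1.31 and -0.98. In siNELF-B none was called (0.164% of all probe sets) and the median was -0.04. Without siNELF-B replicates 2 and 3, 5 of the 7 were called lower in siNELF-A (4.05% of all probe sets called), 5 in siNELF-C (10.9%) and 5 in siNELF-E (4.66%). IGF1R was below 0 at 33 of 34 probe sets in siNELF-A (median -1.30, 1 called) and at 34 of 34 in siNELF-E (median -0.80, none called), against 57.3% and 53.1% of all probe sets. Without that pair of arrays 22 and 9 of the 34 were called lower, with 4.05% and 4.66% of all probe sets called.

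IRS1 was below 0 at 2 of 18 probe sets in siNELF-A and at 17 of 18 in siNELF-E, with medians of 0.57 and -0.93 and none called. IGF2R was above 0 at 56 of 58 probe sets in siNELF-E (below 0 at 2 of 58), with a median of 0.54 and none called. Of 31 INSR probe sets 1 was called lower in siNELF-E, from a control level of 3.39; no size is given, as both groups lay under the 40th percentile of genes.

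**Figure D3:**
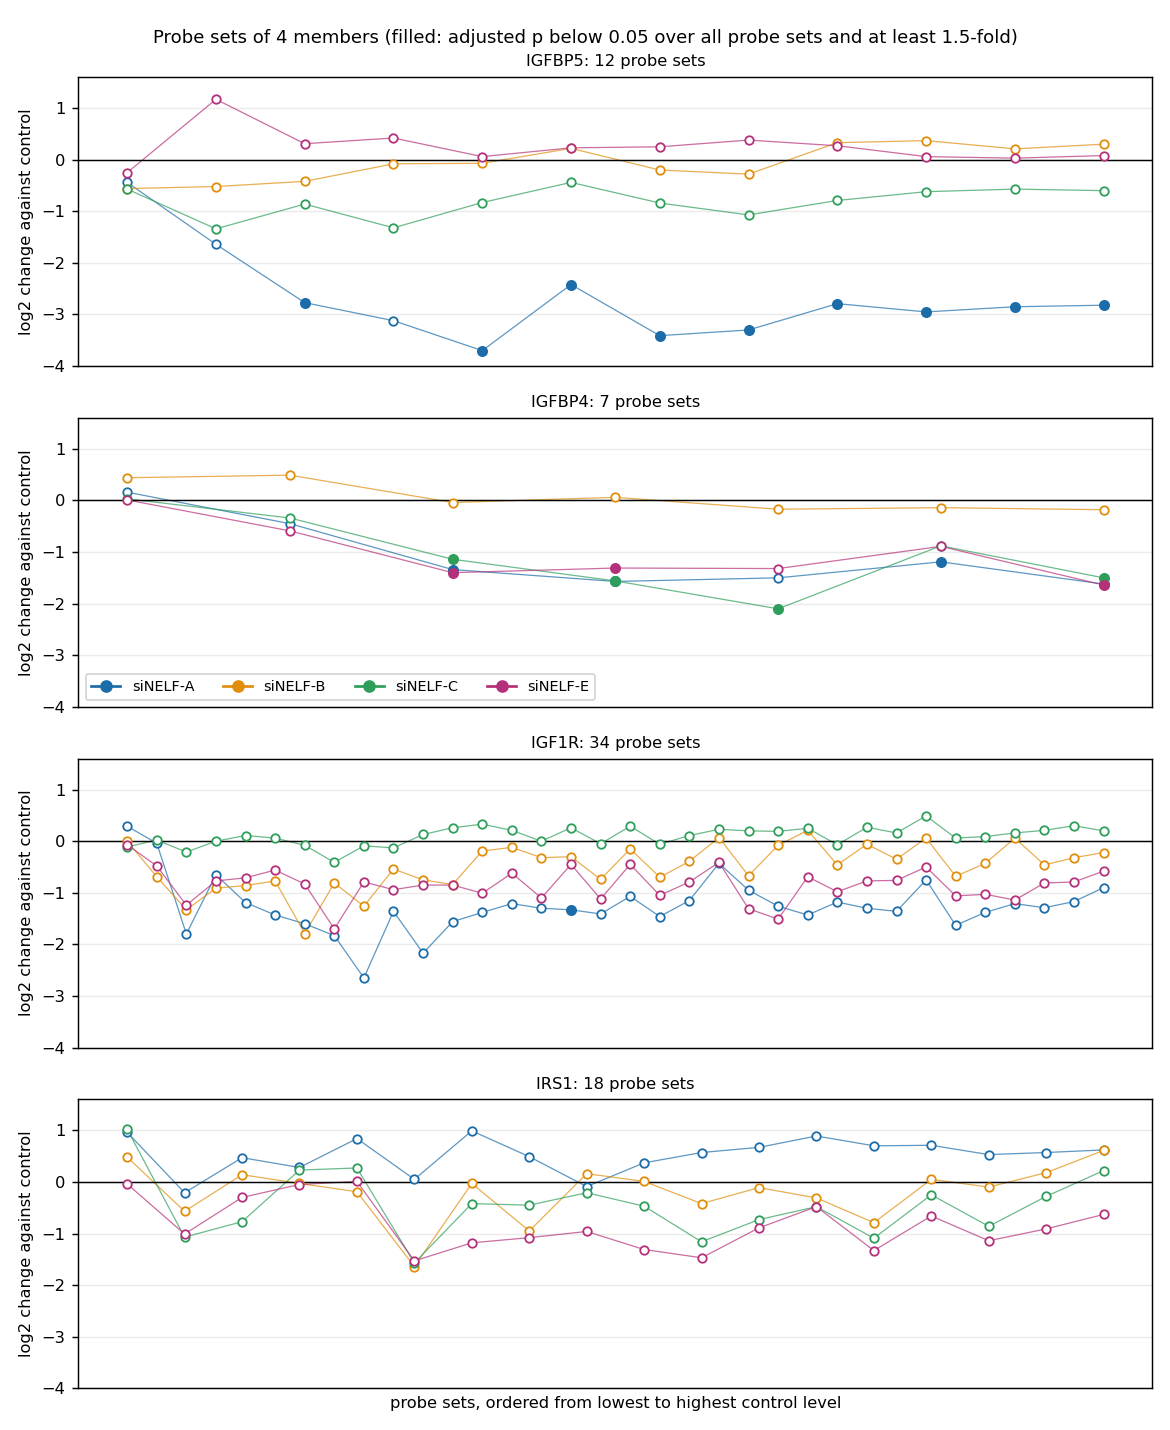
Log2 change against control (vertical axis) of every probe set of IGFBP5, IGFBP4, IGF1R and IRS1 in each knockdown (colour), ordered along the horizontal axis from the lowest to the highest control level; filled points passed the call over all probe sets. IGFBP5 lies far below 0 in siNELF-A at nearly every probe set, and the IGFBP4 probe set with the lowest control level stays near 0 in those where the gene fell.

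Exon usage compares the change of 1 probe set with that of the rest of its gene, and bears on the alternative initiation that the series title names. It was tested with limma's diffSplice on 154212 probe sets, which covered 9 members (all but INSR). Calls fell on 2 of them, IGFBP4 and IGFBP6. IGFBP4 probe set 3721011 was higher relative to the rest by 1.44 in siNELF-A (adjusted p = 0.0104, 0.209% of all tested probe sets called), 1.28 in siNELF-C (0.0223, 0.543%) and 1.09 in the mean (0.0144, 0.338%). It read 7.17, 7.28 and 7.08 in control and 7.43, 7.05 and 7.54 in siNELF-A, while the median of the 5 IGFBP4 probe sets without a usage call went from 9.66, 9.43 and 9.38 to 8.40, 7.97 and 7.87. It was thus near its control level in cells where the rest of the gene was lower. It was also the dimmest of the 7 probe sets (7.18 in control, the others 8.33 to 11.38). The next dimmest, 3721012, measured -0.45 in siNELF-A, -0.34 in siNELF-C and -0.59 in siNELF-E and was not called.

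These usage calls were sensitive to single arrays. That of 3721011 in the mean was lost without control replicate 1, 2 or 3 (adjusted p = 0.289, 0.0931 and 0.304) and was kept without siNELF-B replicates 2 and 3 (0.000397). In siNELF-A it was lost without control replicate 1 or 3 or siNELF-A replicate 3 (up to 0.195), and in siNELF-C without any control array or siNELF-C replicate 1 or 2 (up to 0.243). IGFBP4 probe set 3721034 was lower relative to the rest in siNELF-C by -1.20 (0.037), lost without any 1 of 9 arrays (up to 0.398). IGFBP6 probe set 3415756 was lower by -1.84 in siNELF-B (0.0336, 0.84%) and -1.51 in the mean (0.0411). It read 5.71, 5.58 and 5.27 in control, 4.73, 3.65 and 3.43 in siNELF-B, and 3.61, 5.48 and 2.23 in siNELF-A. In siNELF-C it read 5.87, 4.73 and 4.48, and in siNELF-E, without a usage call, 3.22, 3.17 and 3.52. The median of the other 7 IGFBP6 probe sets read 6.21, 6.23 and 6.10 in control, 6.78, 5.97 and 7.01 in siNELF-B, and 5.43, 5.88 and 5.95 in siNELF-E. Without siNELF-B replicates 2 and 3 the siNELF-B usage value of 3415756 was -0.96. The siNELF-B call was lost without siNELF-B replicate 3 (0.448), without any control array (up to 0.205) and without siNELF-E replicate 3 (0.0535), and the call in the mean was lost in 9 of 15 such fits (up to 0.458). No usage call fell on a member in siNELF-E (0.124% of all tested probe sets).

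Around the members, 50 of 68 listed genes of the pathway had a cluster of their own, and few were called. In siNELF-A 2 were lower and 0 higher, beside 2.83% and 0.495% of all genes. In siNELF-B the counts were 4 and 0 (4.19% and 0.204%), in siNELF-C 4 and 2 (5.3% and 0.922%), in siNELF-E 4 and 0 (4.04% and 1.44%), and in the mean 4 and 0 (4.46% and 0.35%). The medians were 0.01, -0.29, -0.10 and 0.05 in the 4 knockdowns and -0.19 in the mean, against -0.03, -0.14, -0.08, -0.02 and -0.08 over all genes. Without siNELF-B replicates 2 and 3 the lower and higher counts were 6 and 0, 9 and 0, 9 and 3, and 5 and 1 in the knockdowns, and 6 and 0 in the mean. Of all genes, 8.97, 17.8, 14.8 and 7.81% were then lower in the knockdowns and 9.69% in the mean, and 1.35, 1.37, 2.3, 2.86 and 0.745% higher. The 4 genes called in the mean were STC1, STC2, PTPN11 and GRB10.

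STC1 and STC2 encode stanniocalcins, secreted inhibitors of pappalysin, the protease that cuts IGFBP4. STC1 (cluster 3128046) was the 1 pathway gene called in all 4 knockdowns. Control arrays read 6.09, 5.73 and 6.17, and the highest of the 12 knockdown arrays, siNELF-B replicate 2, read 5.03. STC1 fell 2.67-fold, 2.88-fold, 5.47-fold and 3.39-fold in the 4 knockdowns (adjusted p = 0.0026, 0.00325, 3.57e-05 and 0.000269), in every fit that left out 1 array. STC2 (cluster 2887490) fell from 9.73 ± 0.104 to 7.50 ± 0.240 in siNELF-E (4.69-fold, adjusted p = 0.000387). Its siNELF-B change of -1.07 (0.0477) was lost in 14 of the 15 fits that left out an array (up to 0.165). In siNELF-A and siNELF-C it measured -0.51 (0.377) and -0.86 (0.0809), and its mean of -1.17 (0.0085) did not pass without control replicate 3 (0.0745).

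PTPN11, the SHP2 phosphatase that links receptor kinases to Ras, and GRB10, an adaptor that restrains the insulin and IGF1 receptors, were the other genes called in the mean. PTPN11 (cluster 3432333) fell from 7.80 ± 0.112 to 6.12 ± 0.310 in siNELF-E (3.21-fold, adjusted p = 0.000556) and to 6.53 ± 0.510 in siNELF-B (2.41-fold, 0.0139), the latter lost without control replicate 1 or 3 (up to 0.077). Its mean of -0.88 (0.0111) was lost without the same arrays (0.0567 and 0.094). GRB10 (cluster 3050462) fell from 7.09 ± 0.094 to 5.93 ± 0.032 in siNELF-C (2.23-fold, 0.00823). Its mean of -0.71 (0.0276) did not pass without control replicate 1, 2 or 3 (0.125, 0.0834 and 0.165). Quantile, median and 75th percentile scaling brought that mean to -0.41, -0.57 and -0.42, and the interquartile range covariate to -0.41. All of these lay under the fold threshold.

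The 2 brightest listed genes not called in the mean were RPS6 and AKT1. RPS6, a ribosomal protein phosphorylated downstream of mTOR, measured 9.35 ± 0.042 in control and 9.16 to 9.37 in the knockdowns. AKT1, the kinase activated by PI3-kinase, was called lower in siNELF-A, from 9.05 ± 0.123 to 8.31 ± 0.205 (1.67-fold, adjusted p = 0.0162), lost without control replicate 1 or 3 or siNELF-A replicate 3 (up to 0.083). The other knockdowns gave -0.41, -0.52 and 0.18 (0.0985, 0.0528 and 0.643).

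The remaining calls, named after their values were seen, were each lost in some of the 15 fits that left out an array. GRB2, the adaptor that brings SOS to receptors, fell in siNELF-B (-1.37, adjusted p = 0.0175, lost in 4) and siNELF-C (-1.01, 0.0326, lost in 6). SHC1, another adaptor, fell in siNELF-E (-0.76, 0.0139, lost in 4), and IGF2BP2, an mRNA-binding protein, in siNELF-C (-0.84, 0.0242, lost in 5). The higher calls were PIK3R3, a PI3-kinase regulatory subunit, in siNELF-C (1.05, 0.0412, lost in 13) and DDIT4, an mTOR inhibitor, in siNELF-C (0.82, 0.0388, lost in 11). In all of these, control replicates 1 and 3 were among the arrays whose removal ended the call. The ligand IGF1 was at 2.6 in control, below the 25th percentile of gene means (2.70).

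**Figure D4:**
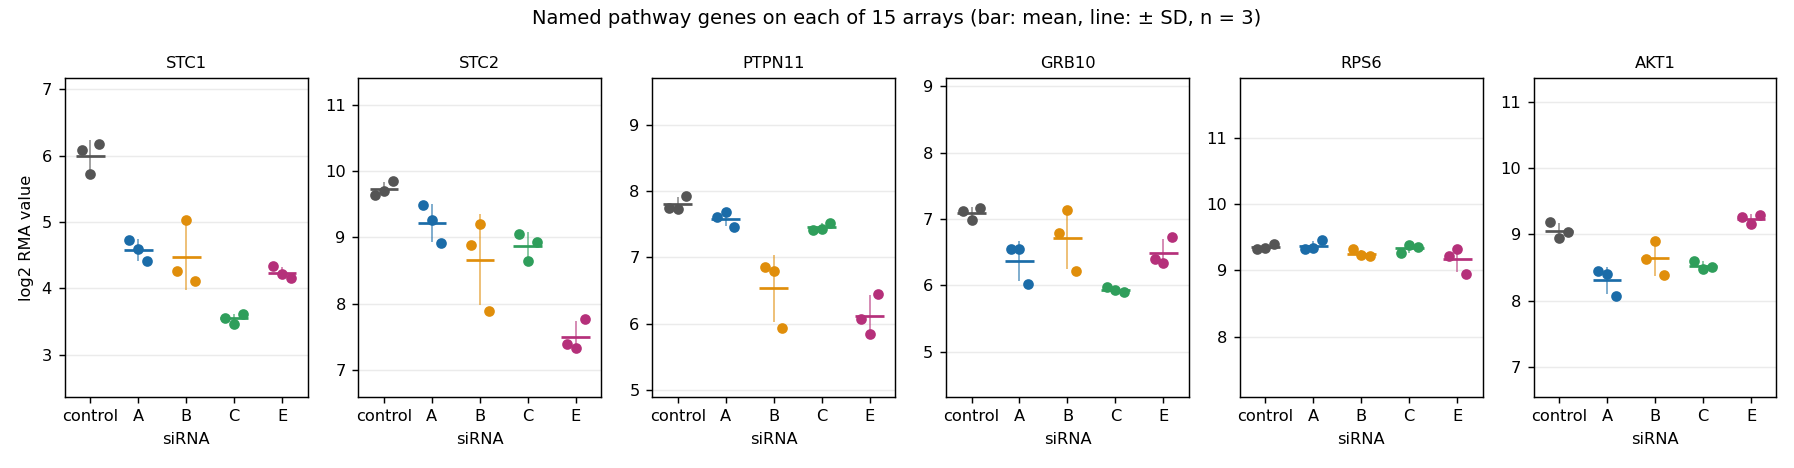
The log2 RMA value (vertical axis) of 6 pathway genes on each of 15 arrays (points), with group means (bars) and SD (lines, n = 3). STC1 lies below control on all 12 knockdown arrays, STC2 and PTPN11 are lowest in siNELF-E, GRB10 is lowest in siNELF-C, and RPS6 stays between 8.95 and 9.45.

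Genes whose 15 gene-level values ran most like those of the called members were named as a description; the 15 arrays include repeats of 5 conditions, and the genes were picked as the highest of all. For IGFBP4 they were CITED1 (Pearson r = 0.932), DNMT3B (0.907) and MDGA1 (0.898). CITED1 measured -2.2, -0.65, -1.71 and -2.15 in the 4 knockdowns. Its smallest change was in siNELF-B, which follows from its selection for likeness to IGFBP4. For IGFBP5 they were TXNIP (0.976), PTPRF (0.960) and TRPV6 (0.954), with siNELF-A changes of -1.95, -1.41 and -1.65. For IGF1R they were SLC6A6 (0.968), SLC24A3 (0.964) and EPN2 (0.960), and SLC6A6 changed by -1.64 in siNELF-A and -1.13 in siNELF-E.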

How the data were processed

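T47D cells treated with control siRNA or siRNA against 1 of 4 NELF subunits were measured on Affymetrix exon arrays, 3 per group. The deposited values are log2 RMA (robust multi-array average) values from ArrayAssist for core exons on genome build hg18, per the labels; no software version is given in the sources used here. One table (22011 clusters) and an exon-level table (287329 probe sets) hold the same 15 arrays. The values were used as deposited; no detection call or background was at hand, so for levels below the 40th percentile of gene means (3.90) on both sides no fold is given. The number of arrays limits the precision.

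Symbols came from the platform annotation; 2408 clusters with several symbols and 5171 with none were tested but not named. Of the 2 IGF1R clusters the brighter was used and the other is given beside it, a rule added after the annotation was read. IGF2R was measured from probe sets, where the plan had been a test at the gene level.

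In R 4.3.3, limma 3.58.1 (lmFit, eBayes) fitted 1 mean per group to all 15 arrays, with 11 contrasts: each knockdown and their mean against control, and 6 pairs. Calls needed at least 1.5-fold and an adjusted p (Benjamini-Hochberg, over every cluster or probe set) below 0.05. Exon usage (diffSplice) left out probe sets below the 25th percentile, genes below the 40th and genes with under 3 probe sets. The fits were tested on simulated data. Promoters were read from a RefSeq table (GRCh38.p14) with Python 3.11.15; all 10 members matched.

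The members, the 68 pathway genes and the markers were chosen with earlier results of these data known. The text names the 10 members, up to 6 pathway genes called in the mean and any called in all 4 knockdowns, the 2 brightest not called in the mean, 3 genes most like each called member, and probe sets with usage calls. Promoters were printed for members called in the mean or in at least 2 knockdowns. Alternatives changed the scaling, the spread estimate, the filter, the gene summary, the replicate block and the arrays used. Equal replicate numbers gave no sign of pairing. Over 30 pairs of equal numbers across groups, deviations from group means correlated at -0.297 to 0.203 (median -0.006). Over 60 pairs of different numbers they correlated at -0.248 to 0.314 (median 0.009). Whether arrays of equal number shared a batch was not tested.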

Additional observations from a re-analysis of the deposited data

Results flagged for a closer look

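Each of these results is a member whose means in 2 knockdowns lay on opposite sides of the control mean. The difference between the 2 knockdowns passed limma's test over all clusters (adjusted p in parentheses, log2 scale). A mean on one side could be close to control, so a result here is not a pair of opposite changes. IGFBP5 in siNELF-B, for example, was at 0.05 against control (limma adjusted p = 0.902) and at -0.21 by the median of its probe sets. IGFBP5 was at -2.83 in siNELF-A and 0.05 in siNELF-B, a difference of 2.88 (5.68e-05), and 0.17 in siNELF-E, a difference of 3.0 (1.89e-05). Between siNELF-C (-0.75) and siNELF-E it differed by 0.92 (0.034). IGF1R was at -1.19 in siNELF-A and 0.15 in siNELF-C, a difference of 1.34 (0.00415), and siNELF-E (-0.80) was below siNELF-C by -0.95 (0.0195). IRS1 was at 0.54 in siNELF-A and at -0.46 in siNELF-C and -0.82 in siNELF-E, differences of -1.0 (0.0477) and -1.36 (0.0069). IGFBP2 was at -0.54 in siNELF-A and 0.33 in siNELF-C, a difference of 0.87 (0.019). IGFBP6 was at -0.53 in siNELF-E, 0.07 in siNELF-B and 0.20 in siNELF-C, differences of -0.60 (0.0476) and -0.74 (0.0241). In 6 of these 10 results neither knockdown was called against control, and in the other 4 only siNELF-A or siNELF-E was.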

How the results depend on the processing

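No called change of a member reversed under any alternative, and the IGFBP4 calls, the IGFBP5 calls against siNELF-A and in siNELF-A, and the IGF1R call in siNELF-A held in each. Some uncalled changes turned sign. With exon-level medians these included IGFBP3 and IGFBP5 in siNELF-B (0.37 to -0.11 and 0.05 to -0.21), IGFBP6 in siNELF-A (-0.16 to 0.03) and INSR in siNELF-A. With quantiles the means of IGFBP2, IGFBP6 and IRS1 went from -0.08, -0.10 and -0.20 to 0.19, 0.17 and 0.07. Rescaling moved the median of all genes in the mean of the knockdowns from -0.08 to 0.05 (quantiles), 0.07 (median) and 0.21 (75th percentile).

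Moves in the counts of called members, and in which members were called, included these. For siNELF-C against control the count was 2 under quantile, median or 75th percentile scaling, an interquartile range covariate, array weights, 2 groups only, or without siNELF-B replicates 2 and 3. The added gene was IGFBP2 (0.63, adjusted p = 0.00338 with quantiles) or IGFBP5 (-0.75, 0.00522 with 2 groups only). For siNELF-E against control it was 4 with the covariate and 1 with the replicate block, a trended robust spread or exon-level medians, where IGF1R was lost (0.0521, 0.051 and 0.0975). For the mean it was 1 with quantile or 75th percentile scaling, the covariate or exon-level medians, where IGFBP5 was lost (-0.58, -0.55, -0.51 and -0.98). For siNELF-C against siNELF-B it was 2 under the 3 scalings and the covariate, and 3 with array weights or without siNELF-B replicates 2 and 3. For siNELF-E against siNELF-B it was 1 with the replicate block or trended robust spread and 4 with array weights. For siNELF-E against siNELF-C it was 1 with exon-level medians. Under the 3 scalings and the covariate, siNELF-E against siNELF-B lost IGFBP6 but gained IGF1R and IRS1. With median scaling the gained genes measured -0.65 (0.0258) and -0.89 (0.012). Between siNELF-B and siNELF-A, IGFBP2 was gained with quantiles (0.70, 0.00183), the 75th percentile or the covariate. In that pair IRS1 was gained with array weights (-0.79, 0.000164) and IGF1R was lost with exon-level medians (0.105). IRS1 passed in siNELF-A with quantiles (0.72, 0.00914), the 75th percentile (0.76, 0.0115), the covariate (0.79, 0.00431) and array weights (0.62, 0.0188). In siNELF-E it passed under all 3 scalings (-0.72 to -0.64), the covariate (-0.71), array weights, 2 groups only and without siNELF-B replicates 2 and 3 (each -0.82).

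Member probe sets called in the mean, 3 as analysed, were 17 without siNELF-B replicates 2 and 3 (7.98% of the members' 213, beside 7.76% of all probe sets), 1 with the replicate block and 6 under the other filter on dim probe sets. Usage calls, 2 as analysed, were 4 without that pair and 1 with quantile scaling or the replicate block. Leaving out single arrays gave 3 to 3 called members in siNELF-A, 0 to 0 in siNELF-B, 1 to 2 in siNELF-C, 1 to 3 in siNELF-E and 1 to 2 in the mean. For the pairs it gave 2 to 4 (siNELF-B and siNELF-A), 2 to 4 (siNELF-C and siNELF-A), 2 to 2 (siNELF-E and siNELF-A), 1 to 2 (siNELF-C and siNELF-B), 1 to 3 (siNELF-E and siNELF-B) and 0 to 3 (siNELF-E and siNELF-C). Member probe sets called then ran from 0 to 18 and usage calls from 0 to 2. Where not named, the cause was not tested. By deviations from group means, 2 of 15 arrays were closest to an array of their own number in another group. The block fit lost the calls given above. It also lost IGFBP5 between siNELF-E and siNELF-C (0.0647), IGFBP6 between siNELF-E and siNELF-B (0.072) and IRS1 between siNELF-C and siNELF-A (0.0887). INSR and IGFBP3 lie where the signal limits what could be seen.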
